A study of Homo sapiens with 6 samples.

Results

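The 9 genes described here, *MYC*, *MAX*, *MXD1*, *MXI1*, *MXD3*, *MXD4*, *MNT*, *MGA* and *MLX*, encode the MYC transcription factor, its partner MAX, the factors that compete with MYC for MAX, and the related partner MLX. They were chosen by name, from what their proteins are known to do, with earlier results of these data known. All 9 were among the 15651 genes measured and among the 15246 that passed a filter on low values. RNA was sequenced from cultures of MDA-MB-231, a long-established human line of triple-negative breast cancer (TNBC) for which the labels name no introduced allele or transgene. The 6 libraries came from 3 samples treated with DMSO, the solvent control, and 3 treated with BRL-50481, an inhibitor of phosphodiesterase 7A (PDE7A), which breaks down cAMP. The treatment text of the labels gives 50 μM for 72 h, whereas the treatment tag of the same samples gives 5 μM for 48 h. The study asked how inhibition of PDE7A changes gene expression in TNBC cells, and the comparison here asks how *MYC* moved relative to its partner and its antagonists.

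MYC binds DNA only as a dimer with MAX, at the E-box sequence CACGTG, and raises transcription of genes for ribosome synthesis, metabolism and cell division. The MXD proteins and MNT also dimerize with MAX, bind the same E-boxes and recruit the SIN3 corepressor, so that they act against MYC at shared targets. MGA, a very large protein, dimerizes with MAX inside a Polycomb-type repressor complex named PRC1.6, and MLX pairs with MLXIP (MondoA) and MLXIPL (ChREBP), which respond to glucose. *MYC* is among the best known oncogenes, and high MYC activity is a known trait of many TNBC tumours.

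All 3 members with CACGTG in their RefSeq promoter window are shown first, because this is the sequence that the network reads and these members belong to it themselves. Each window ran from 250 bases before to 50 bases after an annotated start site, on GRCh38.p14, and each line gives 30 bases, 5′ to 3′ on the strand of the gene, with the E-box in capitals.
*MXD4*, chr4:2262330-2262359, minus strand, 238 bases before the start: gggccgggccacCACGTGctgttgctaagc
*MNT*, chr17:2401236-2401265, minus strand, 193 bases before the start: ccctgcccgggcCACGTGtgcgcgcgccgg
*MLX*, chr17:42567038-42567067, plus strand, 50 bases before the start: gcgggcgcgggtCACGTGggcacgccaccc
The motif reads the same on both strands. Windows were at hand for 8 of the 9 members, and 3 of the 8 (37.5%) held it, against 12.1% of the 11595 tested genes with a window. For *MYC* no window was used. *MXD4* rose while *MNT* and *MLX* fell, as described below, so the members with the motif did not share a direction.

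Levels are given as normalized counts, the number of reads on a gene divided by a size factor of its library. The libraries summed to 30956800 to 32764000 normalized counts. DMSO replicate 1 stood apart, with a standard deviation of 0.141 of its log2 values around the group mean, compared with 0.0964 and 0.119 in the other DMSO libraries and 0.0791 to 0.0832 in the BRL-50481 libraries. The cells carried the mesenchymal markers *VIM*, *CD44* and *AXL* at 30982 normalized counts or more in every library, while *SPARC* (at most 36.3), the epithelial marker *CDH1* (at most 105) and the progesterone receptor gene *PGR* (at most 7.75) were low. *ERBB2* (at least 1606) and *EPCAM* (at least 674) were not low, and *PECAM1*, *COL1A1* and *PDGFRB*, which mark other cell types, reached at most 537. *PDE7A* itself had 406 ± 2.06 in the control and 298 ± 40.6 in the treated libraries (SD, n = 3), a measure of its mRNA and not of the inhibited enzyme.

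Among the 9 genes, *MYC*, *MAX*, *MXI1*, *MNT* and *MLX* were lower in BRL-50481-treated cells, *MXD3* and *MXD4* were higher, and *MXD1* and *MGA* did not pass the test. The test was limma on log2(normalized count + 1), with Benjamini-Hochberg adjustment over all genes tested and a threshold of 0.05 on the adjusted p-value. The 7 called members make 77.8% of the 9, and 58.7% of all genes tested were called. The 5 lower members compare with 29.8% of all genes called lower, and the 2 higher members with 28.9% called higher. The values of both groups did not overlap in 7 of the 9, as in 64.2% of all genes. In bulk RNA, fewer cells that express a gene and less of its RNA in each cell cannot be told apart. For each member without overlap, the two-sided exact permutation test gave p = 0.1, the smallest that 3 libraries against 3 allow. The study describes the samples of each group as biological replicates.

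**Figure D1:**
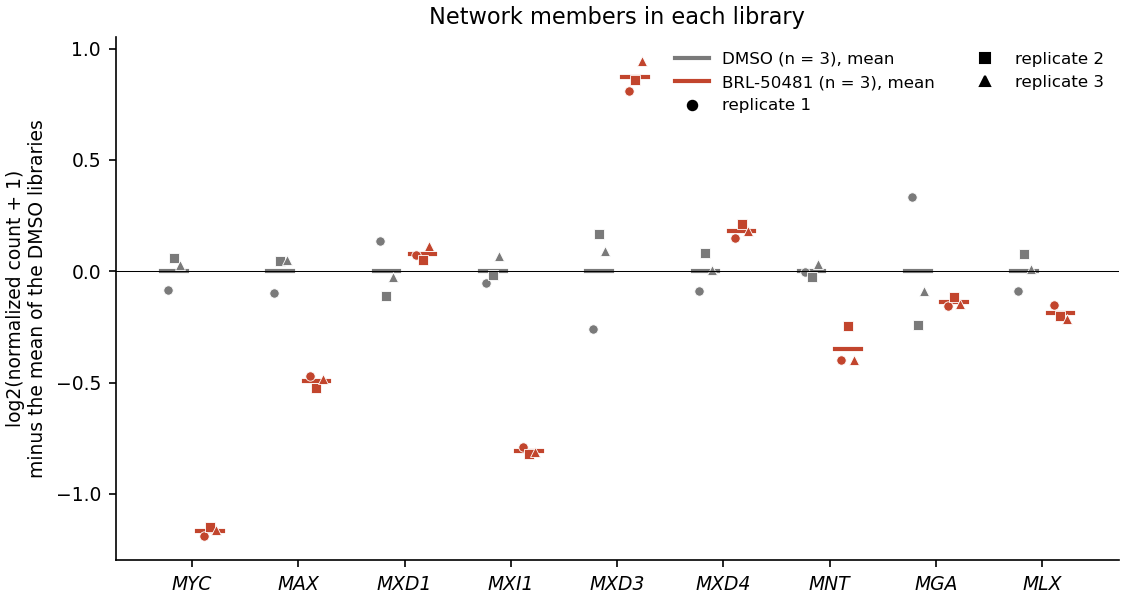
Level of each of the 9 genes in each library, as log2(normalized count + 1) minus the mean of the 3 DMSO libraries. Symbols mark replicate numbers and bars mark group means. The BRL-50481 libraries lie tightly together and farthest below DMSO for *MYC*, while the DMSO libraries of *MGA* are spread above and below the BRL-50481 libraries.

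*MYC* (chromosome 8 of hg38, 127735434 to 127742951) had 26024, 28761 and 28138 normalized counts in the DMSO libraries and 12098, 12446 and 12330 in the BRL-50481 libraries. Every treated library lay far below the lowest control library, and the treated libraries differed far less from one another than the controls did. The mean went from 27641 ± 1435 to 12291 ± 177 (SD, n = 3), which leaves 44.5% of the DMSO level. The log2 fold change was −1.17 (standard error 0.0477, 95% confidence interval −1.27 to −1.06, adjusted p = 1.63e-09), and it stayed between −1.21 and −1.14 when any single library was left out. Of all genes tested, 341 (2.24%) fell by more and 26 had a smaller p-value. By raw abundance *MYC* was the 105th most abundant gene in DMSO and the 380th in BRL-50481. *PVT1*, the non-coding RNA gene next to *MYC* on chromosome 8, fell as well, from 804 ± 43.1 to 605 ± 46.7 (SD, n = 3), or −0.41 on the log2 scale (adjusted p = 0.000578). *PVT1* shares exon sequence with small RNA genes annotated on its strand.

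*MAX* (chromosome 14, 65006174 to 65102695), the obligate partner of MYC, had 2892, 3190 and 3207 normalized counts in DMSO and 2229, 2149 and 2211 in BRL-50481. Its control and treated libraries were clearly apart, although the fall was smaller than that of *MYC*. The mean decreased to 70.9% of DMSO, with a log2 fold change of −0.49 (standard error 0.0561, interval −0.62 to −0.37, adjusted p = 7.04e-06). The log2 ratio of *MYC* to *MAX* lay between 3.13 and 3.17 across the control libraries and between 2.44 and 2.53 across the treated ones, a difference of −0.67 with no overlap (exact permutation test, p = 0.1).

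The antagonists did not move together. *MXI1* and *MNT* were lower, *MXD3* and *MXD4* higher, and *MXD1* and *MGA* not called, so that the 6 had a median log2 fold change of −0.031, compared with 0.015 over all genes tested. *MXI1* (chromosome 10, 110207605 to 110287365), which encodes the antagonist also called MXD2 and was the most abundant of the 6, had 4885, 5015 and 5311 normalized counts in DMSO and 2929, 2872 and 2882 in BRL-50481. The treated libraries lay close together and well below all controls. The fall left 57.1% of the DMSO level (log2 fold change −0.81, interval −0.92 to −0.70, adjusted p = 3.9e-08). *MNT* (chromosome 17, 2384073 to 2401104), a broadly expressed antagonist, had 1747, 1722 and 1792 in DMSO and 1329, 1478 and 1328 in BRL-50481. BRL-50481 replicate 2 was the highest of the treated libraries and still below every control. The log2 fold change of *MNT* was −0.35 (standard error 0.0613, interval −0.48 to −0.22, adjusted p = 0.000292).

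*MXD3* (chromosome 5, 177301461 to 177312757), which is known to be expressed in dividing cells, unlike its relatives that accompany differentiation, was the least abundant of the 9 in DMSO, with 107, 144 and 137 normalized counts. In BRL-50481 it had 226, 234 and 248, so that the lowest treated library exceeded the highest control by more than the whole range of the controls. The treated mean was 182% of the control mean, and the log2 fold change was 0.87 (standard error 0.130, interval 0.59 to 1.15, adjusted p = 7.55e-05). With 1 library left out it ranged from 0.74 (without DMSO replicate 1, the lowest control) to 0.95 (without DMSO replicate 2). *MXD3* shares 926 exon bases with *RAB24* on the same strand in GENCODE, where reads cannot be assigned to 1 gene. *RAB24* itself went from 1057 ± 40.3 to 949.5 ± 78.8 (SD, n = 3), a log2 fold change of −0.16 that did not pass the test (adjusted p = 0.0826).

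*MXD4* (chromosome 4, 2247432 to 2262109) had 747, 841 and 796 normalized counts in DMSO and 881, 920 and 900.5 in BRL-50481. The groups did not overlap, but the gap between them was smaller than the range of the controls. Its log2 fold change of 0.18 (standard error 0.0687, interval 0.033 to 0.33, adjusted p = 0.0366) was the weakest of the calls. It lost the call without any 1 of DMSO replicate 1 or 3 or BRL-50481 replicate 1, 2 or 3, with adjusted p-values of up to 0.117. *MXD1* (chromosome 2, 69897688 to 69942945), the founding member of the MXD family, had 1276, 1074 and 1141 in DMSO and 1220, 1201 and 1257 in BRL-50481. The treated libraries lay inside the range of the controls, with DMSO replicate 1 the highest of all 6. The log2 fold change was 0.079 (interval −0.074 to 0.23, adjusted p = 0.356), and without DMSO replicate 1 it was 0.15 and passed the test (adjusted p = 0.0292). *MXD1* shares 237 exon bases with *SNRNP27* on its strand. *SNRNP27* itself went from 668 ± 37.7 to 574 ± 59.3 (SD, n = 3) and was called lower (log2 fold change −0.22, adjusted p = 0.0438). With a library left out, its adjusted p-value reached 0.22.

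*MGA* (chromosome 15, 41621134 to 41773081) had 3138, 2107 and 2347 normalized counts in DMSO and 2241, 2300 and 2251 in BRL-50481. DMSO replicate 1 was far above the other controls, and the remaining controls lay on either side of the treated libraries. The log2 fold change was −0.14 (standard error 0.107, interval −0.37 to 0.092, adjusted p = 0.281). Without DMSO replicate 1 it was 0.025 (adjusted p = 0.677), and without DMSO replicate 2 it was −0.26 and passed (adjusted p = 0.0225), so the direction of *MGA* rests on single control libraries. Its canonical transcript, at 12193 bases, is the longest of the 9, and a correction of each library for transcript length and GC content gave −0.34 (adjusted p = 9.23e-05).

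*MLX* (chromosome 17, 42567072 to 42573239) had 2236, 2517 and 2401 normalized counts in DMSO and 2143, 2072 and 2053 in BRL-50481. The highest treated library lay just under the lowest control. The log2 fold change was −0.19 (standard error 0.0578, interval −0.31 to −0.064, adjusted p = 0.0126). It did not pass with quantile normalization (−0.12, adjusted p = 0.0928) or without BRL-50481 replicate 3 (−0.18, adjusted p = 0.059). *MLXIP*, the main partner of MLX in glucose sensing, went from 3465 ± 284 to 2741 ± 50.1 (SD, n = 3), with a log2 fold change of −0.34 (adjusted p = 0.000371). *MLXIPL* had 197 ± 16.0 and 174 ± 42.1 with overlapping groups (log2 fold change −0.20, adjusted p = 0.27). Without BRL-50481 replicate 3 *MLXIPL* was called lower (−0.39, adjusted p = 0.0296), and without BRL-50481 replicate 2 its value was −0.077.

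*TXNIP* and *ARRDC4*, the arrestin-like genes that MLXIP and MLX are best known to switch on, were both lower. *TXNIP* went from 94376 ± 612 to 71636 ± 622 normalized counts (SD, n = 3; log2 fold change −0.40, adjusted p = 2.97e-06). With quantile normalization the change in *TXNIP* was −0.12 (adjusted p = 0.0417). *ARRDC4* went from 1237 ± 64.5 to 744 ± 29.9 (SD, n = 3; log2 fold change −0.73, adjusted p = 1.09e-06). The *ARRDC4* promoter window holds an E-box 210 bases before the start, and neither of the 2 *TXNIP* windows holds one. Of the remaining MYC paralogs, *MYCL* fell from 98.1 ± 12.5 to 54.4 ± 15.6 (SD, n = 3; log2 fold change −0.87, standard error 0.209, adjusted p = 0.00293), at a level far under that of *MYC*. *MYCN* was not analysed here.

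Relative to each of the 6 antagonists and to *MAX*, *MYC* was lower in every BRL-50481 library than in any DMSO library. All 7 ratios share the values of *MYC*, so they are not separate results. Of all genes tested, 2.24% fell by more than *MYC*, so a lower ratio is not particular to these 7 genes. The log2 ratio differed most against *MXD3*, with 7.74 ± 0.150 under DMSO and 5.70 ± 0.0607 under BRL-50481 (SD, n = 3), a difference of −2.04. It differed least against *MXI1*, with 2.45 ± 0.0637 and 2.09 ± 0.0358. Between these lay the differences against *MXD4* (−1.35), *MXD1* (−1.25), *MGA* (−1.03), *MNT* (−0.82) and *MAX* (−0.67). Each of the 7 ratios gave p = 0.1 in the two-sided exact permutation test, which is also the value adjusted over the 7 and the smallest that this design allows. The difference against *MXI1*, which itself fell by 0.81, was −0.36. The log2 value of *MYC* minus the mean of the log2 values of the antagonists was 4.46, 4.64 and 4.57 in DMSO and 3.41, 3.41 and 3.41 in BRL-50481. The group means differed by −1.14, or by −0.81 when the antagonists' counts were summed before taking the logarithm, which gives the abundant *MXI1* more weight.

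**Figure D2:**
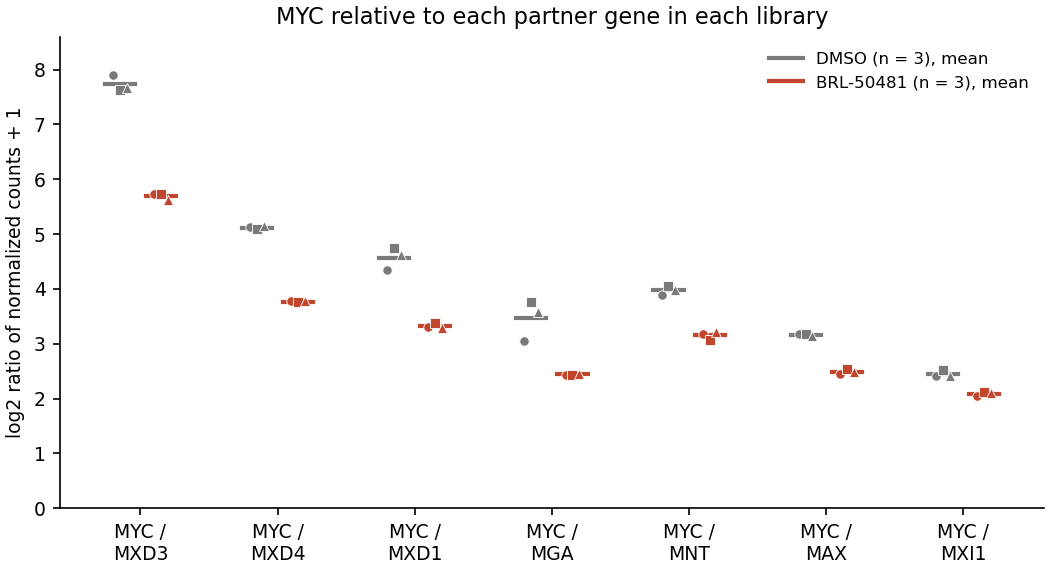
Log2 ratio of the normalized counts (each with 1 added) of *MYC* to those of each antagonist and of *MAX* in each library, ordered by the size of the difference. Symbols are replicates and bars are group means. All 7 ratios are lower in BRL-50481, with the widest gap for *MXD3* and the narrowest for *MXI1*.

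To compare levels between the genes, normalized counts were divided by the length of the canonical transcript in GENCODE. Per kilobase, *MYC* led in both groups, with 7428 ± 386 under DMSO and 3303 ± 47.7 under BRL-50481 (SD, n = 3). *MAX* (1541 ± 88.2) and *MXI1* (1461 ± 62.9) came next in DMSO and overlapped. *MLX* (1011 ± 59.7) and *MNT* (356 ± 7.15) followed, each apart from its neighbours. *MXD1* (209.7), *MGA* (207.6) and *MXD4* (205) overlapped in DMSO, and *MXD3* was last at 121 ± 18.3. In BRL-50481 the order after *MAX* (1093 ± 20.7) became *MLX* (885 ± 20.2), *MXI1* (834 ± 8.74) and *MNT* (279.8 ± 17.5). *MXD4* (233) overlapped *MXD3* (221), which overlapped *MXD1* (221), and *MGA* was last at 186 ± 2.58. With canonical lengths, *MXI1* thus went from above *MLX* to below it, and *MXD3* from last place to the level of *MXD1* and *MXD4*. Places that lie close together, such as those of *MLX* and *MXI1* in BRL-50481, depend on the transcript length assigned to each gene. The canonical transcript of *MXD3* has 1067 bases, and the gene shares 926 exon bases with *RAB24*, where reads cannot be assigned to a single gene. The level of *MXD3* per kilobase, and with it its place in the order, may therefore be too low.

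The summed level per kilobase of the 7 genes whose proteins compete for MAX, namely *MYC* and the 6 antagonists, was 9989 ± 393 in the control and 5277 ± 64.2 in the treated libraries (SD, n = 3). *MYC* made up 73.3%, 75.5% and 74.2% of this sum in DMSO and 62.4%, 62.7% and 62.6% in BRL-50481. The groups did not overlap, and *MYC* remained the largest single part. The antagonists together had 2561 ± 58.3 and 1974 ± 16.5, of which *MXI1* alone accounted for 1461 and 834. The level of *MAX* divided by this sum was 0.154 ± 0.00296 and 0.207 ± 0.00626, higher in every treated library. These shares describe mRNA, not protein, and they depend on the transcript length assigned to each gene: with the median length of its coding transcripts, *MYC* made up 76.8% to 78.8% of the control sums and 67.8% to 68.1% of the treated sums.

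**Figure D3:**
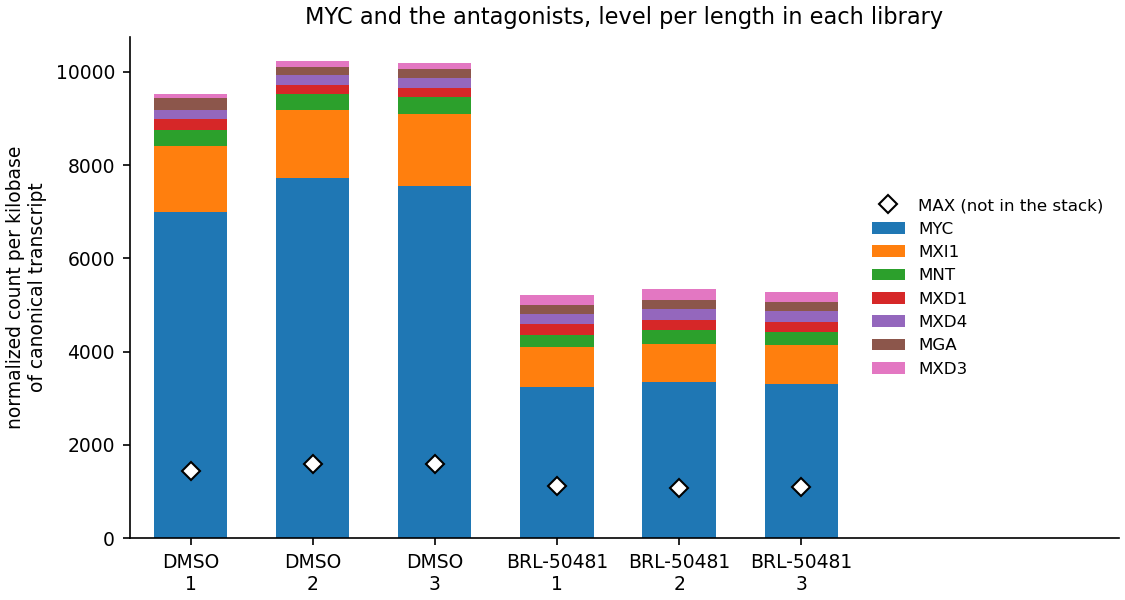
Normalized count per kilobase of canonical transcript in each library, stacked for *MYC* and the 6 antagonists, with the level of *MAX* as a white diamond. The stack is lower in all 3 BRL-50481 libraries, and the *MYC* part shrinks from 73.3% or more of it to 62.7% or less.

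The genes around the network were described from 8 lists written from general knowledge, with earlier results of these data known. Of 45 tested genes that MYC is known to activate, 36 were lower and 3 higher in BRL-50481-treated cells and 6 were not called, at a median of −0.59 on the log2 scale. Over all genes the median was 0.015, with 29.8% lower and 28.9% higher. The list was divided into subgroups after its values were seen. Genes of the nucleolus and of ribosome synthesis accounted for 17 of the 45, and 16 of these were lower. Among them were *NCL* (−0.50) and *NPM1* (−0.44), abundant nucleolar proteins, *FBL* (−0.77) and *NOP56* (−0.77) of the particle that methylates ribosomal RNA, and *BOP1* (−0.99) and *NOP16* (−1.10), which act in large-subunit assembly. *UBTF*, a factor of RNA polymerase I, had 0.082 (adjusted p = 0.223).

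Counts of the smaller subgroups stand beside 80.0% lower in the whole MYC-activated list and 29.8% lower over all genes tested. The 3 cell cycle genes of that list were all lower, with *CDC25A*, the phosphatase that activates CDK2, down from 1870 ± 38.4 to 573 ± 15.3 normalized counts (SD, n = 3; log2 fold change −1.70, adjusted p = 5.97e-10). *CCND2* (−1.36), a G1 cyclin, and *CDK4* (−0.53), its kinase, fell by less. Of 7 genes for nucleotides, polyamines and one-carbon units, 6 were lower, with *PPAT* (−1.07), the first enzyme of purine synthesis, ahead of *SRM* (−0.85) and *ODC1* (−0.71), which make spermidine and putrescine. *SHMT2*, a mitochondrial enzyme of one-carbon metabolism, was higher (0.27, adjusted p = 0.000199). The mitochondrial chaperonin gene *HSPE1* fell from 2419 ± 194 to 839.5 ± 15.3 (SD, n = 3; log2 fold change −1.52, adjusted p = 2.84e-09). *HSPE1* shares 192 exon bases with the readthrough gene *HSPE1-MOB4*. *TFRC*, the transferrin receptor gene, fell by 1.46 on the log2 scale, whereas *SLC16A1*, a lactate and pyruvate transporter, rose from 167 ± 22.2 to 306 ± 11.5 (SD, n = 3; log2 fold change 0.88, adjusted p = 2.63e-05).

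The 5 glycolytic genes of the list gave small differences. *LDHA* (−0.010), *PKM* (−0.066), *GPI* (−0.042) and *HK2* (0.053) were not called. *ENO1*, which went from 107445 ± 5643 to 95842 ± 2733 normalized counts (SD, n = 3), was lower (−0.16, adjusted p = 0.0116), but not without BRL-50481 replicate 1 (adjusted p = 0.0649). With quantile normalization *ENO1* (0.16), *PKM* (0.16) and *LDHA* (0.15) were all called higher, so that these very abundant transcripts have no direction that holds under every scaling.

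Promoters of the MYC-activated list carried the E-box more often than those of all genes, in 23 of the 38 list genes with a window (60.5%), compared with 12.1% of all tested genes with one. The list was written from known MYC targets, so this share is not independent of how the list was made. The neighbouring chaperonin genes *HSPD1* and *HSPE1* are both counted for the same site. Some of the sites are shown for genes of different roles that were lower, in the same form as above: a polyamine enzyme, a cyclin-dependent kinase, a cap-binding translation factor, a purine enzyme and a chaperonin.
*ODC1*, chr2:10448024-10448053, minus strand, 29 bases before the start: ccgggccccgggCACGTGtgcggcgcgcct
*SRM*, chr1:11060200-11060229, minus strand, 199 bases before the start: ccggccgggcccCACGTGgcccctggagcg
*CDK4*, chr12:57752394-57752423, minus strand, 101 bases before the start: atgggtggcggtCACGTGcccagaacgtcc
*EIF4E*, chr4:98929188-98929217, minus strand, 72 bases before the start: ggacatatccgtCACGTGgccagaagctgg
*PPAT*, chr4:56435780-56435809, minus strand, 182 bases before the start: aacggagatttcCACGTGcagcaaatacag
*HSPE1*, chr2:197500345-197500374, plus strand, 22 bases before the start: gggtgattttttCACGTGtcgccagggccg
These genes were chosen for display after their values had been seen, and a match of letters does not show that MYC was bound there. Within the list, 19 of the 23 genes with the motif were lower and 12 of the 15 without it, at medians of −0.59 in both. Over all tested genes, 37.2% of the 1405 with the motif were lower and 27.8% higher, and of the 10190 without it 30.5% were lower and 30.2% higher.

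Of 10 tested genes that MYC is known to repress, 5 were lower, 3 were higher and 2 were not called, at a median of −0.18 on the log2 scale. The shares over all genes tested were 29.8% lower and 28.9% higher. *NDRG1*, a stress-linked growth inhibitor, rose from 13444 ± 292 to 20563 ± 404 normalized counts (SD, n = 3; log2 fold change 0.61, adjusted p = 1.08e-07), and *THBS1* (0.32) and *PDGFRB* (0.33) rose as well. *NDRG1* shares 753 exon bases with an unnamed non-coding RNA gene on its strand. *THBS1* had 0.51 with quantile normalization and 0.18 after the length and GC correction, and was called higher in both. *PDGFRB* did not pass without BRL-50481 replicate 2 (adjusted p = 0.0581). *GADD45A*, a growth arrest gene (−0.91), *FTH1*, the ferritin heavy chain gene (−0.81), and *CDKN1A*, the inhibitor p21 (−0.41), were lower. *CEBPA* had 22.2 ± 9.05 and 7.97 ± 2.72 normalized counts (SD, n = 3; log2 fold change −1.34, adjusted p = 0.00948) and did not pass without DMSO replicate 2 (adjusted p = 0.0559).

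**Figure D4:**
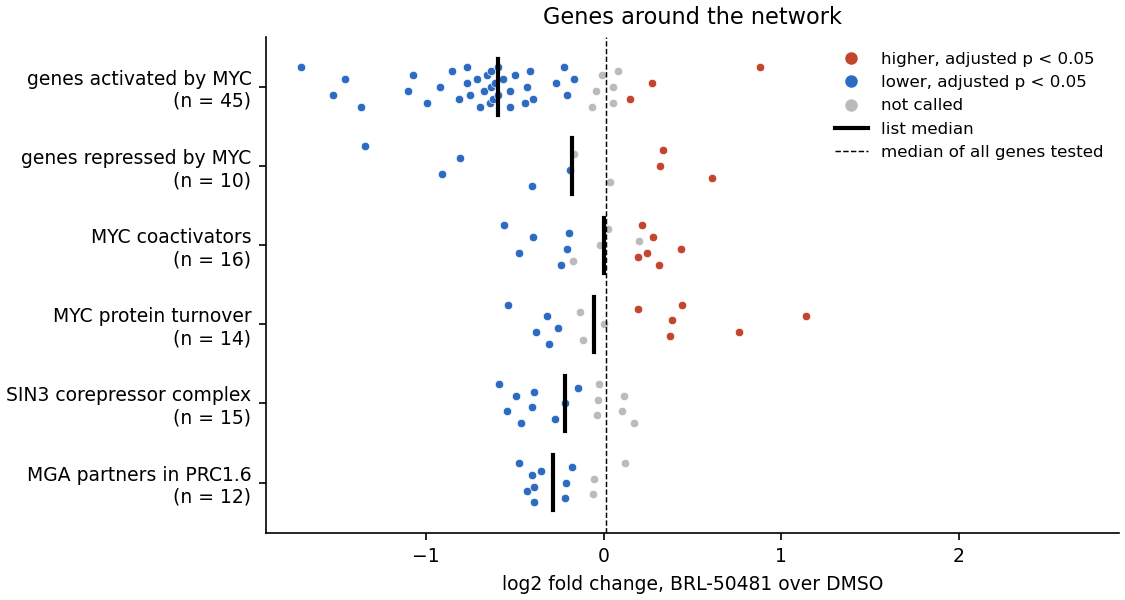
Log2 fold change (BRL-50481 over DMSO) of each tested gene of 6 lists, coloured by call, with the list median as a black bar and the median of all genes tested as a dashed line. The MYC-activated list lies farthest to the left (36 of 45 lower), the coactivator and turnover lists spread to both sides, and the SIN3 and PRC1.6 lists hold lower and uncalled genes only.

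For the cofactors of the network, too, counts stand beside 28.9% higher and 29.8% lower over all genes. Of 16 MYC coactivators, 6 were higher and 6 lower, and the median log2 fold change was 0.0038. Acetyltransferase genes went both ways, with *EP300* (0.44), *KAT5* (0.31) and *CREBBP* (0.24) higher and *KAT2A* (−0.40) lower. *PAF1* (−0.56), an elongation factor, and *WDR5* (−0.48), an adaptor that MYC binds on chromatin, were lower. Of 15 genes of the SIN3 complex, which MXD proteins and MNT recruit, 9 were lower and 0 higher in the limma test, at a median of −0.22. *BRMS1* (−0.59), *ING1* (−0.54), *HDAC1* (−0.40) and *HDAC2* (−0.39) were among the 9, and *RBBP7* (−0.031, adjusted p = 0.575) was not called. At an unadjusted p under 0.05, 1 of the 15 was higher, and with median centring of the libraries 2 were called higher. Of 12 partners of MGA in PRC1.6, 9 were lower and 0 higher in the limma test (median −0.28), also at an unadjusted p under 0.05. Of the 9 lower genes 3, *HDAC1*, *HDAC2* and *WDR5*, also stand in the SIN3 or coactivator lists. *L3MBTL2* (−0.43) and *E2F6* (−0.35), which belong to PRC1.6 itself, were lower, and *CBX3* (−0.055) was not called. *RING1* (0.12, not called) was called higher with quantile normalization, median centring and the length and GC correction.

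Of 14 genes that set the stability of the MYC protein, 6 were higher and 5 lower, at a median of −0.056, against 28.9% higher and 29.8% lower over all genes tested. *AURKA*, the kinase that stabilizes MYC family proteins and drives mitotic entry, rose from 2234 ± 59.6 to 4915 ± 47.2 normalized counts (SD, n = 3; log2 fold change 1.14, adjusted p = 2.16e-09). *HUWE1*, a ubiquitin ligase, rose from 16546 ± 3478 to 27688 ± 691 (SD, n = 3; log2 fold change 0.76, adjusted p = 2.95e-05). DMSO replicate 1 was the highest control for *HUWE1* (20545) as for *EP300* (3295) and *MGA*. *GSK3B* (0.44), which marks MYC for degradation, was higher, while its paralog *GSK3A* (−0.54), the ligase gene *SKP2* (−0.32) and *SET* (−0.38), an inhibitor of the phosphatase PP2A, were lower. *FBXW7*, the ligase subunit that recognizes phosphorylated MYC, was higher (0.19, adjusted p = 0.0339) and not called after the length and GC correction (0.096, adjusted p = 0.134). *CIP2A*, listed under its older symbol *KIAA1524*, was higher (0.39, adjusted p = 0.00021). *GSK3A* shares 479 exon bases with an unnamed coding gene model on its strand, as *CCND2* does over 999. The protein level of MYC was not measured here.

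Outside the network, the genes whose pattern over the 6 libraries was most like that of *MYC* were *ESF1*, a nucleolar factor, *DNAJB1*, a heat shock cochaperone, and the antisense gene *EMC3-AS1*. The measure was the root mean square difference of log2 values, each taken relative to the mean of the DMSO libraries, over the 11455 genes whose normalized counts averaged 100 or more. It was 0.0247 for *ESF1*, 0.0257 for *DNAJB1* and 0.0364 for *EMC3-AS1*. *ESF1* itself went from 5827 ± 364 to 2550.2 ± 26.1 (SD, n = 3). For *MXD3*, the antagonist with the largest change, the nearest genes were *SOD3* (0.0423), *ARFRP1* (0.0524) and *GSTM4* (0.0530).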

How the data were processed

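RNA-seq of 6 MDA-MB-231 libraries was used, grouped by their labels, which give an oligo-dT library in 1 field and ribosomal RNA depletion in another. According to the Methods and the submitters' processing notes, the authors aligned single-end reads to hg38 with STAR 2.7.1a, counted reads on UCSC genes by strand (reverse) with HTSeq, and ran DESeq2 1.28. The signal that the authors deposited is this count after division by a DESeq2 size factor for the library, and the deposited mean signal is its average over libraries. The authors' deposited log2 fold changes, standard errors, Wald scores and p-values were not used.

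All deposited values (100%, tolerance 0.01) were whole multiples of 1 smallest step per library. Tests on counts were nevertheless not run, because this step lies so close to 1 in 3 libraries that the criterion set for recovering reads was not met. Genes that reached 4 normalized counts in 3 or more libraries were tested on log2(normalized count + 1) with limma 3.58.1 (R 4.3.3; lmFit, eBayes with a trend, groups as the only term). Fold changes are on the log2(value + 1) scale. Replicates of 1 group differed by more than counting error (chi-square per gene 2.56 to 20.8).

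Members and lists were chosen with earlier results of these data known, and the subgroups of the MYC-activated list after its values were seen. Genes named are all 9 members, all tested genes of the 2 shortest lists, *PVT1* and *PDE7A*, and from each other list the 3 most abundant genes and the 2 largest called rises and falls. Some genes that this rule picks, 1 of them among the coactivators, are not reported here. Further list genes, *RAB24* and *SNRNP27* were named after their values were seen. *EIF4A1* and *CDKN2B* were not analysed here, nor were *ESR1* and *PTPRC*. Lengths, GC content, positions and exon overlaps came from GENCODE release 44 on hg38, with 96.5% of genes matched by current or older symbol. Promoter windows came from RefSeq on GRCh38.p14. Alternatives were other pseudocounts (0.5 and 4), filters (none, or a mean of at least 20), normalizations, no trend, a replicate block, a loess correction (span 0.5) for length and GC content, and leaving out each library. Shares per kilobase with another transcript length were added after the data were seen. Python 3.11.15 was used for other steps.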

Additional observations from a re-analysis of the deposited data

How the results depend on the processing

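The tests on counts with edgeR and DESeq2 were not run. Over the whole table, leaving out 1 library gave 3751 to 4876 higher and 4027 to 4933 lower genes. The calls of *MYC*, *MAX*, *MXI1*, *MXD3* and *MNT* held under every alternative run. *MLX* lost its call with quantile normalization (−0.12). With 1 library left out, log2 fold changes ranged from −0.23 to −0.15 for *MLX*, 0.14 to 0.22 for *MXD4*, 0.023 to 0.15 for *MXD1* and −0.26 to 0.025 for *MGA*, and each of the 4 changed its call or direction in at least 1 of these fits. The length and GC correction gave −0.019 for *MXD1* and −0.34 for *MGA*. The decrease of *MYC* relative to its antagonists was −0.81 with summed counts. Genes called higher in the SIN3 list, 0 as reported, numbered 1 with quantile normalization, 2 with median centring, 2 with the length and GC correction and 0 to 1 with a library left out. In the PRC1.6 list, also 0 as reported, they numbered 1 under each of these 3 scalings. In the MYC-activated list they numbered 7 with quantile normalization. Of other named genes, *RBBP7* turned to 0.024, *ENO1* to 0.16, *PKM* to 0.16 and *LDHA* to 0.15 with quantile normalization, and *LDHA* to 0.020 with median centring, 0.0084 with the correction and −0.045 to 0.014 with a library left out. The cause was not tested. The replicate block gave 4440 higher and 4589 lower genes, with *MYC* at −1.17, and changed no member's call. Same-numbered libraries correlated in their deviations from the group means at 0.126, 0.109 and 0.0647, each the best match of its library, which is a hint from the data that the labels do not explain. *MYCL* and *CEBPA*, at under 100 normalized counts, are those whose depth limits precision most.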
